A study of Rattus norvegicus with 86 samples.

Results

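The immune and microglial genes described here are 52 of the 17250 genes measured in the prelimbic cortex of Heterogeneous Stock (HS) rats. They were chosen by name only: a gene was taken when the study's lists of genes with an expression quantitative trait locus pair its Ensembl identifier with a symbol that starts like those of the interferon, interleukin, CD antigen, complement C1q, Toll-like receptor, chemokine, tumour necrosis factor (TNF), caspase or rat major histocompatibility families. The rule gave 53 genes, and 1 of them, *RT1-Db2*, was not in the table used here. Because the lists used here name 3292 of the 17250 genes (19.1%), many known immune genes of the table carry no name and could not be counted as members. *Ifit1*, which the rule leaves out, is set beside the members only where it bears on them.

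HS rats are an outbred population descended from several inbred strains, so each of the 80 rats (40 male and 40 female, 1 library each) carried its own mix of founder alleles. None of the rats, which shared cages, had been given drugs or tested for behaviour, and the prelimbic cortex of both hemispheres was dissected from frozen sections, so every group is untreated bulk tissue. The labels give each rat a sex and a rat batch: batch 2 had 14 rats, of which 3 were female, batch 3 had 23 with 13 females, batch 4 had 26 with 15 females, batch 6 had 16 with 8 females, and batch 5 was a single female. What a rat batch stands for is not given in the labels, and 6 further labelled samples that the submitters had removed were not analysed here.

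Microglia are the resident macrophages of the brain. They make the C1q proteins that start the classical complement cascade, carry receptors that sense microbes and damage, and respond to cytokines. Interferons switch on a set of antiviral genes in nearly every cell type, through a response element in their promoters, while many CD antigens are surface proteins first found on blood cells that neurons and glia also use.

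Values are log2 of the adjusted read count plus 1, as deposited. The adjusted counts summed to between 16957388 and 20613396 per library, totals that are set by the authors' scaling and are not a sequencing depth. A count is not divided by gene length, so levels are compared between rats and never between genes. In bulk tissue, fewer cells of a type and less RNA per cell cannot be told apart. Of the 20 listed microglial markers used here, 6 could be matched to a named gene (*P2ry12*, *P2ry13*, *Itgam*, *Sall1*, *Olfml3* and *Cyba*), and each was detected in all 80 rats. Their summed level adds adjusted counts, so markers with more reads weigh more in it. It had overlapping ranges in the batches, with means of 9.89 ± 0.08, 9.95 ± 0.14, 10.02 ± 0.16 and 10.02 ± 0.11 (log2, mean ± SD) in batches 2, 3, 4 and 6. None of the listed markers of lymphocytes, neutrophils, oligodendrocytes, their precursors or neurons carried a name here, so blood cells could be followed only through *Hbb*, a haemoglobin chain. Reads of close paralogs, such as the *Ifitm* genes, *Ifit2* and *Ifit1bl*, the class II gene *RT1-Db1* and the chemokine *Ccl21*, may be divided between copies in the counting, and their values are uncertain for that reason.

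The members ranged from genes with hardly any reads to well-expressed genes. Of the 52 members, 42 were detected in all 80 rats, and 19 had a mean log2 value under 5, against 4225 of all 17250 genes. They varied more between rats than other genes, with a median SD of 0.42 against 0.26 for all genes and 0.23 for 3240 other genes with a name. Low genes vary more on this scale, and among genes with a mean of at least 5 the median SD was 0.26 for 33 members, 0.21 for 2683 other genes with a name and 0.21 for all 13025 genes. These medians are descriptions with no test. The members were named from lists of genes with an expression quantitative trait locus in this study's rats. Their choice is therefore not independent of the spread between rats.

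**Figure D1:**
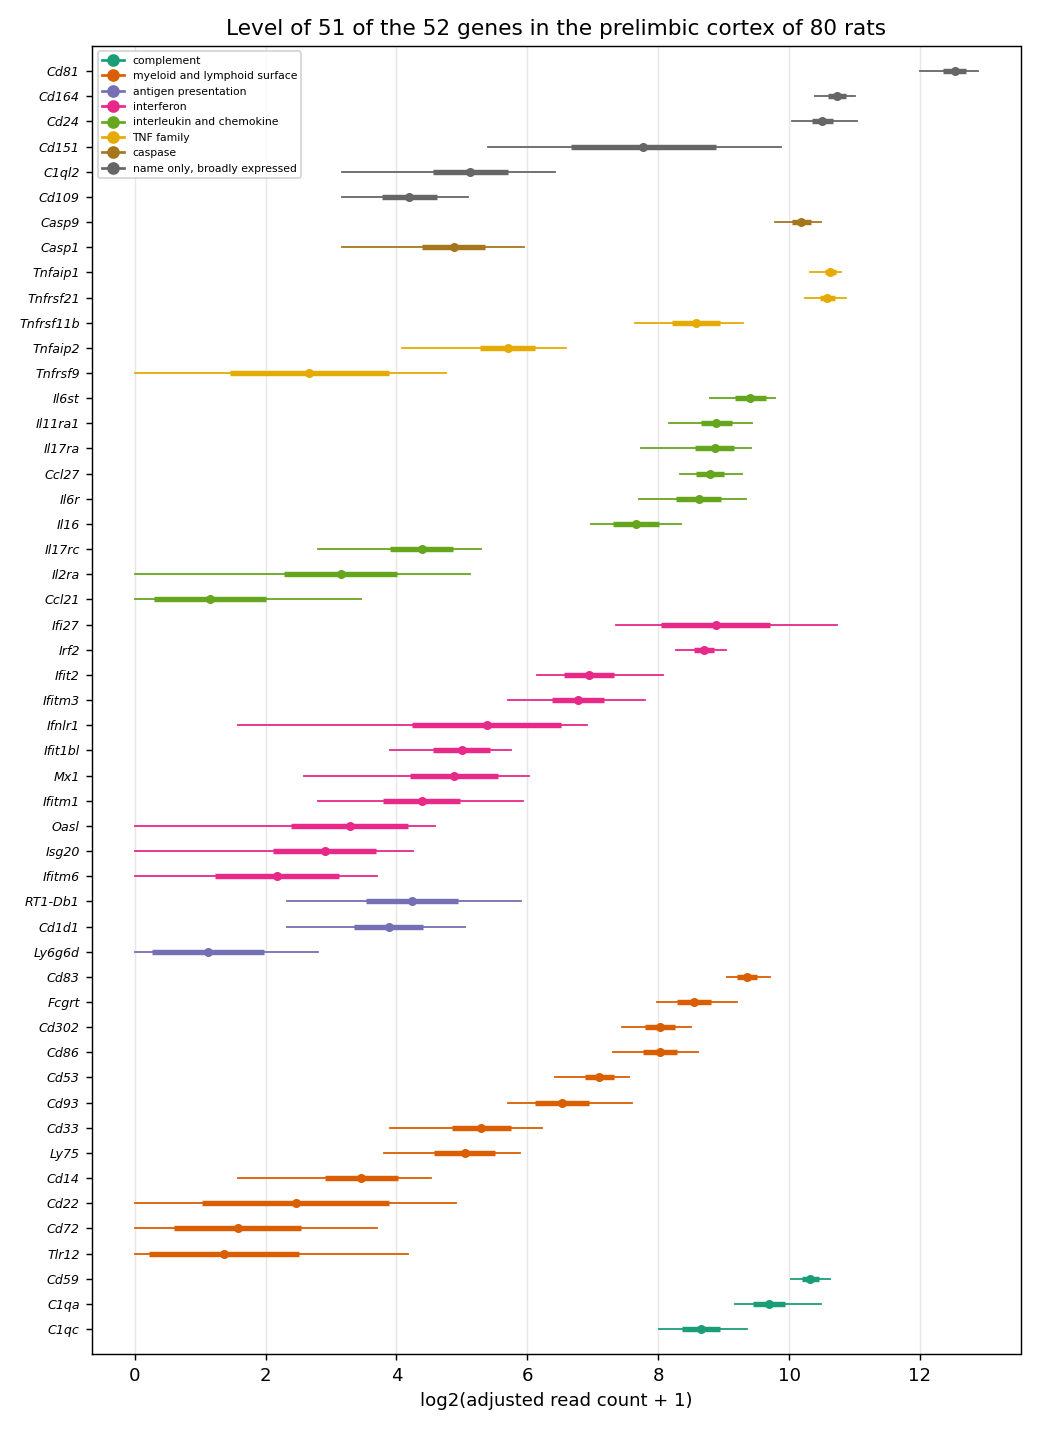
Level of 51 of the 52 genes over 80 rats, in log2(adjusted read count + 1), grouped by role. Points are means, thick bars 1 SD to each side and thin lines the lowest to the highest rat. *Cd22*, *Tnfrsf9*, *Tlr12*, *Ifnlr1* and *Cd151* have the 5 widest SDs, and levels of different genes are not comparable because counts are not divided by length.

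Rat batches were compared by a moderated F-test in limma, adjusted for sex, and in direction by the mean of batches 4 and 6 minus the mean of batches 2 and 3, the difference meant wherever batches are set against each other. The single rat of batch 5 entered the F-test but, having its own coefficient, did not enter that difference. The split of the batches into these sides was seen in an earlier description of these data. The contrast was thus not chosen blind, and its p-values are no independent evidence for the split. Of the 52 members, 22 differed between the batches by the F-test at a Benjamini-Hochberg adjusted p under 0.05, where 59.4% of all genes did. In direction 22 members passed, where 55.4% of all genes did, and 16 of them were among those of the F-test. The other 6 (*C1qc*, *Cd93*, *Ifi27*, *Il17ra*, *Tlr12* and *Tnfaip2*) passed in direction alone, and 6 more (*Casp9*, *Cd14*, *Cd86*, *Ifit1bl*, *Irf2* and *Tnfaip1*) by the F-test alone. Of those that passed in direction, 7 were higher in batches 4 and 6 (28.8% of all genes) and 15 lower (26.6% of all genes). The members' share was thus below that of the whole table for higher genes and near it for lower genes. Among genes with a mean of at least 5, 6 of 33 members were higher and 15 lower, against 4233 higher and 4207 lower of all 13025. The median difference was -0.03 over the 52 members and 0.01 over all genes.

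**Figure D2:**
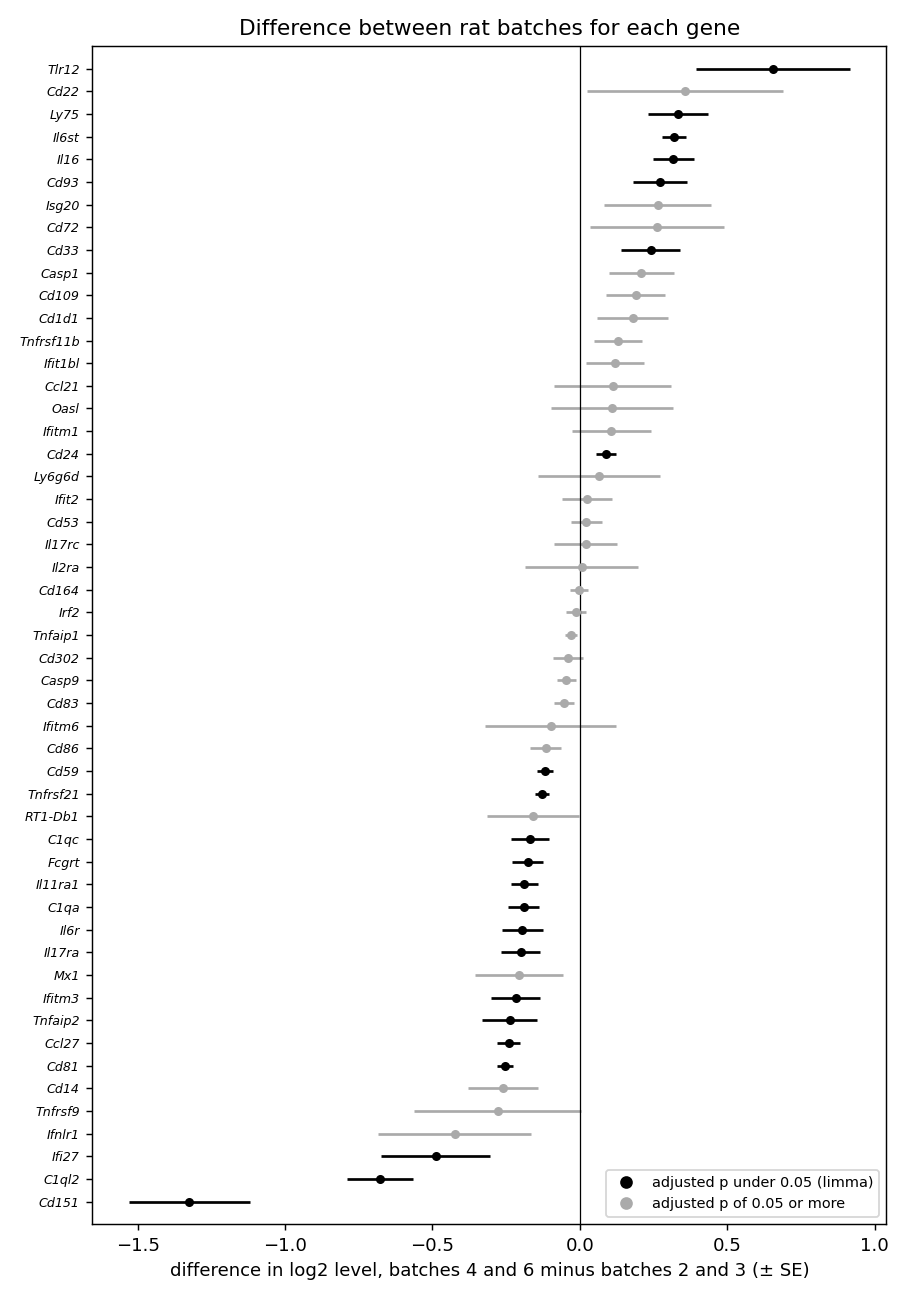
Difference in log2 level between batches 4 and 6 and batches 2 and 3 for 51 of the 52 genes, each with its standard error. Black points have a limma adjusted p under 0.05 and grey points do not. Of the black points, 15 lie below 0, with *Cd151* (-1.32) and *C1ql2* (-0.68) lowest, and 7 lie above 0.

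All 3 complement genes were lower in batches 4 and 6, where 26.6% of all genes were. *C1qc*, however, did not pass the F-test over the batches (limma adjusted p = 0.0603). *C1qa* (ENSRNOG00000012807) and *C1qc* (ENSRNOG00000012804) encode chains of C1q, the protein that recognises targets for the classical pathway, and *Cd59* (ENSRNOG00000042821) encodes a membrane protein that blocks the final pore-forming complex. *C1qa* ran from 9.41 to 10.21 in batch 2 (median 9.66), 9.38 to 10.48 in batch 3 (median 9.82), 9.31 to 10.05 in batch 4 (median 9.59) and 9.18 to 10.19 in batch 6 (median 9.54). The ranges overlapped widely, but 35 of the 42 rats of batches 4 and 6 lay below the median of batches 2 and 3. The difference was -0.19 (standard error 0.05, limma adjusted p = 0.00147). *C1qc* ran from 8.30 to 9.12 in batch 2 (median 8.65), 8.29 to 9.36 in batch 3 (median 8.77), 8.02 to 9.28 in batch 4 (median 8.57) and 8.10 to 9.03 in batch 6 (median 8.50), a difference of -0.17 (standard error 0.06, limma adjusted p = 0.0204). For *C1qc*, 32 of the 42 rats lay below that median, so it moved in the direction of *C1qa* with more overlap. *Cd59* differed by -0.12 (standard error 0.03, limma adjusted p = 0.000193), and 37 of the 42 rats lay below the median of the other batches. With the summed microglial markers as a further covariate, chosen after these results were seen, the differences were -0.27 for *C1qa*, -0.25 for *C1qc* and -0.12 for *Cd59*, and limma still called all 3. That covariate is weighted by count, with median adjusted counts of 420 for *Sall1*, 178 for *P2ry12*, 176 for *Itgam* and 44 for *P2ry13*. It is therefore no even measure of microglial content. With that covariate *Cd24*, *Cd33*, *Tlr12* and *Tnfaip2*, described with their roles, were no longer past the threshold. Among the microglial markers themselves, *P2ry12*, a nucleotide receptor, was higher in batches 4 and 6 by 0.27 (standard error 0.06, limma adjusted p = 0.000162) and *Sall1*, a transcription factor of microglial identity, by 0.12 (standard error 0.04, limma adjusted p = 0.00342). *Cyba*, a subunit of the phagocyte oxidase, was at -0.24 (standard error 0.09, limma adjusted p = 0.0134), while *P2ry13*, *Itgam* and *Olfml3* did not pass the test, with differences from -0.06 to 0.17. The markers therefore did not move one way. From a list of 22 complement genes, 5 were measured under a name, and *C1r* (0.02) and the inhibitor *Serping1* (0.01) showed no difference past the threshold.

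The plot of levels by batch shows *C1qa* beside *Cd151*, *C1ql2*, *Cd81*, *Il6st* and *Ly75*, which also passed in direction. They are examples and not a ranking by separation.

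**Figure D3:**
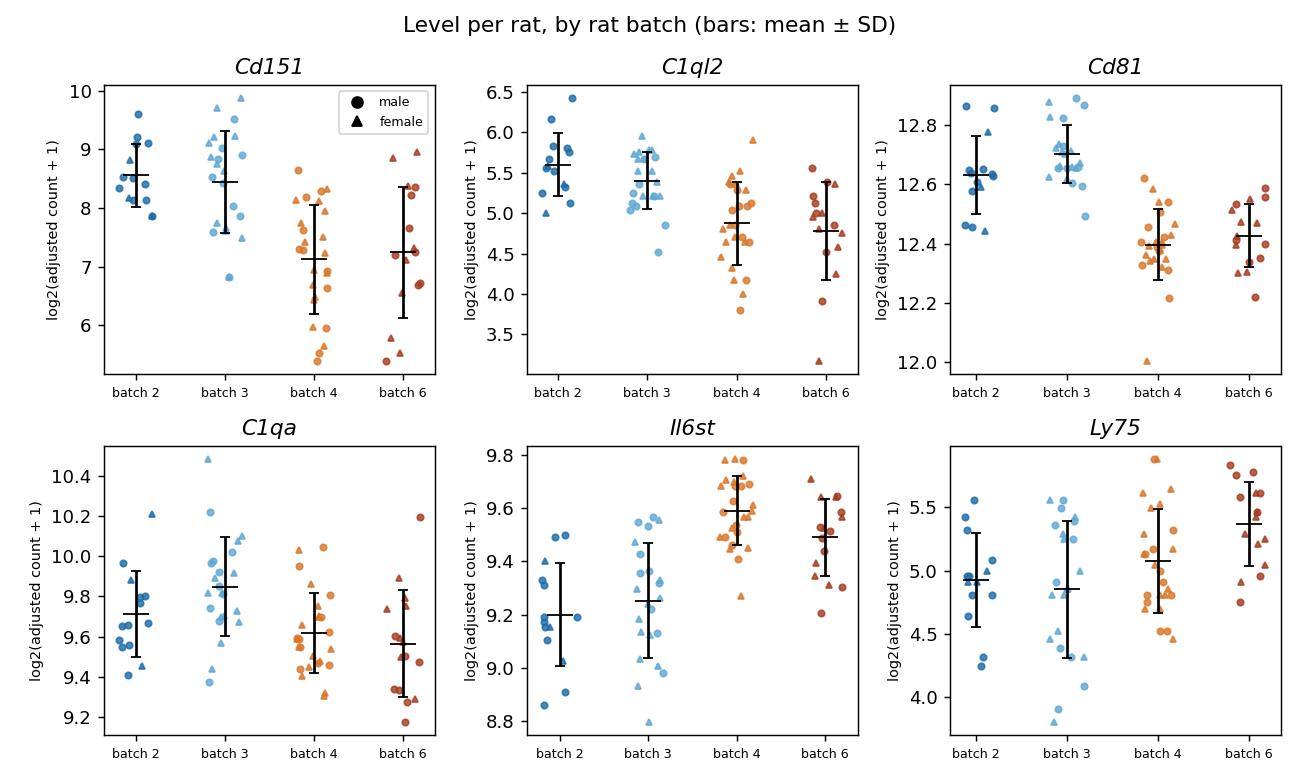
Level of 6 genes in each rat, by rat batch, in log2(adjusted read count + 1). Circles are males and triangles females, and bars give the mean ± SD. *Cd81* in batches 4 and 6 lies below the median of batches 2 and 3 in all 42 rats, and *Il6st* lies above it in 41 of 42.

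The 12 surface receptors of myeloid and lymphoid cells included 4 that were higher in batches 4 and 6 and 1 that was lower. Of all genes, 28.8% were higher and 26.6% lower. *Tlr12*, a Toll-like receptor, was near the limit of detection, with 23 rats at 0. It ran from 0.00 to 3.32 in batch 2 (median 0.50), 0.00 to 3.91 in batch 3 (median 1.00), 0.00 to 3.17 in batch 4 (median 1.58) and 0.00 to 4.17 in batch 6 (median 1.58), and the rats at 0 numbered 7 of 14, 7 of 23, 8 of 26 and 1 of 16 in batches 2, 3, 4 and 6. The difference of 0.65 (standard error 0.26, limma adjusted p = 0.0282) rests on very few reads per rat, and the highest count was 17. It was 0.17 (standard error 0.32, limma adjusted p = 0.696) in batch 4 minus batch 3 alone, and the F-test did not pass (limma adjusted p = 0.148). *Ly75* (ENSRNOG00000007012), an endocytic receptor of dendritic cells, ran from 4.25 to 5.55 in batch 2 (median 4.93), 3.81 to 5.55 in batch 3 (median 4.86), 4.46 to 5.88 in batch 4 (median 5.02) and 4.75 to 5.83 in batch 6 (median 5.44). It was higher by 0.33 (standard error 0.10, limma adjusted p = 0.00391), and 10 rats of batches 4 and 6 exceeded every rat of batches 2 and 3. For batch 4 minus batch 3 alone it was 0.22 (standard error 0.12, limma adjusted p = 0.13). *Cd93* (ENSRNOG00000024799), a transmembrane protein of endothelial and myeloid cells, ran from 5.70 to 7.03 in batch 2 (median 6.16), 5.75 to 7.38 in batch 3 (median 6.52), 6.02 to 7.29 in batch 4 (median 6.61) and 6.07 to 7.59 in batch 6 (median 6.61). Its difference was 0.27 (standard error 0.09, limma adjusted p = 0.00915), with 28 of the 42 rats above the median of the other batches. The F-test did not pass (limma adjusted p = 0.0801), and in batch 4 minus batch 3 alone the difference was 0.11 (standard error 0.11, limma adjusted p = 0.451). *Cd33* (ENSRNOG00000037331), a sialic acid-binding inhibitory receptor of myeloid cells, ran from 3.91 to 5.64 in batch 2 (median 5.02), 4.46 to 6.23 in batch 3 (median 5.39), 4.58 to 6.04 in batch 4 (median 5.32) and 4.70 to 6.09 in batch 6 (median 5.47). It differed by 0.24 (standard error 0.10, limma adjusted p = 0.0374), but the rats of batch 3 lay about as high as those of batch 4, and batch 4 minus batch 3 alone gave -0.065.

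*Fcgrt*, the heavy chain of the neonatal Fc receptor that recycles IgG, was lower in batches 4 and 6, with a difference of -0.18 (standard error 0.05, limma adjusted p = 0.00265). The other 7 receptors did not pass the test. *Cd53*, a tetraspanin of leukocytes, ran from 6.43 to 7.55 over all rats with an SD of 0.22, and differed by 0.02 (standard error 0.05, limma adjusted p = 0.747). *Cd86*, the co-stimulatory ligand of CD28, was at 8.03 ± 0.26 (mean ± SD, n = 80), *Cd83*, a maturation marker of dendritic cells, at 9.36 ± 0.15 and *Cd302*, a C-type lectin receptor, at 8.03 ± 0.23. *Cd86* nevertheless differed between batches by the F-test (limma adjusted p = 0.000151). *Cd14*, the co-receptor for bacterial lipopolysaccharide, had 2 to 22 adjusted counts per rat and a batch difference of -0.26 (standard error 0.12, limma adjusted p = 0.0541). It passed the F-test (limma adjusted p = 0.00577), and batch 4 minus batch 3 alone gave -0.57 (standard error 0.14, limma adjusted p = 0.000624). *Cd22*, *Cd72* and *Tlr12* were at 0 in 9, 13 and 23 rats. *Cd72* and *Cd22* are inhibitory receptors of B cells, a cell type whose other listed markers carry no name here.

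Only 3 genes of antigen presentation or the histocompatibility region were measured under the rule, and all had a mean under 5. The class II beta chain *RT1-Db1* ran from 2.32 to 5.91 (median 4.25), and *Cd1d1*, which presents lipids to natural killer T cells, from 2.32 to 5.04 (median 3.95). *Ly6g6d*, a small surface protein gene of the histocompatibility region, was at 0 in 24 rats and reached 6 counts. None of the 3 passed the test between batches in direction. Of 24 listed genes of the antigen presentation pathway, 5 were measured under a name (*B2m*, *Tap2*, *Psmb9*, *RT1-Db1* and *Cd1d1*). Of these 5, 0 passed the test for direction in limma, where 55.4% of all genes did. By the F-test over the batches *Psmb9* alone of the 5 passed (limma adjusted p = 0.0293). *B2m*, the light chain of class I molecules, was at 11.82 ± 0.18 and differed by -0.04 (standard error 0.04, limma adjusted p = 0.453).

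The 11 interferon genes held 2 that were lower in batches 4 and 6 and none that was higher, where 26.6% and 28.8% of all genes were. *Ifi27* (ENSRNOG00000009263), a small interferon-induced membrane protein gene, spread from 163 to 1706 adjusted counts. It ran from 7.73 to 10.35 in batch 2 (median 8.74), 7.55 to 10.74 in batch 3 (median 9.06), 7.36 to 10.38 in batch 4 (median 8.65) and 7.51 to 10.13 in batch 6 (median 8.26). Every batch spanned more than 2 log2 units, and the difference of -0.49 (standard error 0.18, limma adjusted p = 0.0199) was smaller than the SD over rats, 0.83, and the F-test did not pass (limma adjusted p = 0.0965). *Ifitm3* (ENSRNOG00000015078), which restricts the entry of enveloped viruses, ran from 5.78 to 7.27 in batch 2 (median 6.89), 6.57 to 7.79 in batch 3 (median 6.91), 5.70 to 7.30 in batch 4 (median 6.61) and 6.15 to 7.47 in batch 6 (median 6.67). It was lower, with a difference of -0.22 (standard error 0.08, limma adjusted p = 0.0206), and 32 of the 42 rats lay below the median of batches 2 and 3. Its relatives *Ifitm1* (4.39 ± 0.59) and *Ifitm6* (2.18 ± 0.95, 5 rats at 0) showed differences of 0.11 (standard error 0.13, limma adjusted p = 0.52) and -0.10 (standard error 0.22, limma adjusted p = 0.732).

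The other interferon genes did not pass the test in direction between batches. *Ifit2* and *Ifit1bl*, members of the tetratricopeptide repeat family that binds viral RNA, were at 6.94 ± 0.38 and 5.00 ± 0.44. *Mx1*, a GTPase that traps viral nucleoproteins, was at 4.89 ± 0.67, and *Oasl* and the exonuclease gene *Isg20* were at 3.29 ± 0.89 and 2.91 ± 0.78, each at 0 in 1 rat. *Irf2*, a transcription factor that competes at interferon-driven promoters, was at 8.70 ± 0.16. *Irf2* (limma adjusted p = 0.0118) and *Ifit1bl* (limma adjusted p = 0.0441) differed between batches by the F-test. From a list of 43 genes of the type I interferon response, 11 were measured under a name, of which *Trim21*, a cytosolic antibody receptor, was higher by 0.37 (standard error 0.07, limma adjusted p = 1.68e-05), *Ifi27* was lower and 9 did not pass. Their median difference was 0.11, beside 0.01 for all genes.

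Interferon-induced genes are read through a response element in the promoter, and the upstream sequences were searched for its core, which is GAAA, any 2 bases and GAAA again, on both strands, in the 250 bases before the start of each gene (RefSeq, build GRCr8, a later build than that of the expression values). Of the 52 members, 37 had an entry. The core was found in 7 of them (*Casp1*, *Fcgrt*, *Ifi27*, *Ifit1bl*, *Ifitm3*, *Il6st* and *Isg20*) and in 3.41% of all 33469 promoters. Of the 8 interferon genes with an entry, 4 held it. For this core and those below, a member was counted if any of its starts had a match. The percentages are over single promoters, so the member counts and the percentages are in unlike units. The sequences of the interferon genes with a single start in the table and a match are shown because they carry the letters the search found, which stand in capitals, 5′ to 3′ on the strand of the gene. They lie at chr1:142239809-142240058 on the plus strand for *Isg20*, at chr1:205541759-205542008 on the minus strand for *Ifitm3* and at chr6:128355062-128355311 on the plus strand for *Ifi27*.
Isg20: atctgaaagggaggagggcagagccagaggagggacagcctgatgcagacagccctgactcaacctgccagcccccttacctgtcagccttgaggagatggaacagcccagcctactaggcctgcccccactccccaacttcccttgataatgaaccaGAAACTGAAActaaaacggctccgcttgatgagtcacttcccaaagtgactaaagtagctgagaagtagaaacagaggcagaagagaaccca
Ifitm3: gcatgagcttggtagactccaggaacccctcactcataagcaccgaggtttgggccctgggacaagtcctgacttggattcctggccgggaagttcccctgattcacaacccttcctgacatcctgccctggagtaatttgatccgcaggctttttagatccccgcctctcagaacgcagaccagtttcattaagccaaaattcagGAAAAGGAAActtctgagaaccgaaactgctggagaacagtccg
Ifi27: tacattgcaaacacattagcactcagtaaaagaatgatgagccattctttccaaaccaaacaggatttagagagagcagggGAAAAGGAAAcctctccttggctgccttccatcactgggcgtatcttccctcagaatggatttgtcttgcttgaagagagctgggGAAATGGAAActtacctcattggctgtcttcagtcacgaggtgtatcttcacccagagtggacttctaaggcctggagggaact
*Ifi27* held the core at 2 places, 169 and 84 bases before the start. In *Isg20* and *Ifitm3* the match began 92 and 44 bases before it. The core of the kappaB site, GGGA, any base and TTTCC, was found in 0 of the 37 members and 0.314% of all promoters. The PU.1 core GAGGAAGT was found in *Cd53* and *Mx1* and in 2.04% of all promoters, and CCAAT in 10 members and 34% of all promoters. No member held both the interferon core and the PU.1 core. These are matches of letters and are not known to be sites that a factor uses in this tissue.

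The 9 interleukin and chemokine genes contained both directions, and members of 1 receptor system differed in theirs. *Il6st* (ENSRNOG00000013963), the signalling subunit gp130 that receptors of the interleukin-6 family share, ran from 8.86 to 9.50 in batch 2 (median 9.18), 8.80 to 9.57 in batch 3 (median 9.26), 9.27 to 9.78 in batch 4 (median 9.59) and 9.20 to 9.71 in batch 6 (median 9.52). It was higher by 0.32 (standard error 0.04, limma adjusted p = 1.56e-10): 22 of the 42 rats of batches 4 and 6 lay above every rat of batches 2 and 3, and 18 of the 37 rats of batches 2 and 3 lay below every rat of the others. The subunits that bind the ligands were lower. *Il11ra1*, which binds interleukin-11, differed by -0.19 (standard error 0.05, limma adjusted p = 0.000373), with 40 of 42 rats below the median of the other batches, and *Il6r*, which binds interleukin-6, by -0.20 (standard error 0.07, limma adjusted p = 0.0142). The *Il6r* value rests on batches 2 and 6, with medians of 8.88, 8.60, 8.70 and 8.36 in batches 2, 3, 4 and 6, and batch 4 minus batch 3 alone gave 0.12.

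*Ccl27* (ENSRNOG00000039530), a chemokine known from skin, ran from 8.56 to 9.28 in batch 2 (median 8.97), 8.61 to 9.25 in batch 3 (median 8.99), 8.33 to 9.0 in batch 4 (median 8.63) and 8.50 to 8.97 in batch 6 (median 8.75). It was lower in batches 4 and 6, with a difference of -0.24 (standard error 0.04, limma adjusted p = 3.22e-07), with 41 of the 42 rats below the median of batches 2 and 3. *Il16* (ENSRNOG00000011680), a chemoattractant for CD4+ cells, ran from 7.01 to 7.71 in batch 2 (median 7.46), 6.98 to 8.08 in batch 3 (median 7.53), 7.22 to 8.35 in batch 4 (median 7.85) and 7.19 to 8.34 in batch 6 (median 7.78). It was higher by 0.32 (standard error 0.07, limma adjusted p = 9.31e-05), with 36 of the 42 rats above the median of the others. *Il17ra* (ENSRNOG00000011153), the common chain of the interleukin-17 receptors, ran from 8.53 to 9.42 in batch 2 (median 8.91), 8.16 to 9.30 in batch 3 (median 8.97), 7.74 to 9.25 in batch 4 (median 8.77) and 8.33 to 9.05 in batch 6 (median 8.89). Its difference was -0.20 (standard error 0.07, limma adjusted p = 0.00798), the F-test did not pass (limma adjusted p = 0.0643), and only 1 rat of batches 4 and 6 lay below all those of batches 2 and 3. *Il17rc*, the partner chain, differed by 0.02 (standard error 0.11, limma adjusted p = 0.891), *Il2ra*, the alpha chain of the interleukin-2 receptor, by 0.01 (standard error 0.19, limma adjusted p = 0.982) and *Ccl21*, a lymphoid homing chemokine at 0 in 20 rats, by 0.11 (standard error 0.20, limma adjusted p = 0.661).

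Of the 5 genes of the TNF family, 2 were lower in batches 4 and 6, where 26.6% of all genes were. *Tnfaip2* (ENSRNOG00000010165), a gene induced by TNF, ran from 5.32 to 6.21 in batch 2 (median 5.77), 5.17 to 6.58 in batch 3 (median 5.91), 4.09 to 6.15 in batch 4 (median 5.71) and 4.39 to 6.38 in batch 6 (median 5.60). It was lower, with a difference of -0.24 (standard error 0.09, limma adjusted p = 0.026), but the F-test over the batches did not pass (limma adjusted p = 0.184), and batch 4 minus batch 3 alone gave -0.26 (standard error 0.11, limma adjusted p = 0.0513). *Tnfrsf21*, the death receptor 6 of neurons and other cells, had a narrow range of 1212 to 1861 adjusted counts and was lower, with a difference of -0.13 (standard error 0.02, limma adjusted p = 7.77e-07). Batch 4 minus batch 3 alone gave -0.03 (standard error 0.03, limma adjusted p = 0.454). *Tnfrsf9*, a co-stimulatory receptor of T cells, ran from 1.58 to 4.39 in batch 2 (median 3.08), 1.00 to 4.75 in batch 3 (median 2.81), 0.00 to 4.70 in batch 4 (median 3.16) and 0.00 to 4.25 in batch 6 (median 2.29). The batches overlapped over nearly the whole range (-0.28 (standard error 0.28, limma adjusted p = 0.419)). *Tnfrsf11b*, the decoy receptor osteoprotegerin, was at 8.57 ± 0.37, and *Tnfaip1*, a ubiquitin ligase adaptor, had the smallest SD of the 52 members, at 10.63 ± 0.08. Even so *Tnfaip1* passed the F-test (limma adjusted p = 0.0102), with -0.09 (standard error 0.02, limma adjusted p = 0.00078) in batch 4 minus batch 3.

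Among the caspases, *Casp9* and *Casp1* did not pass the batch test in direction. *Casp9*, an initiator of apoptosis, was at 10.19 ± 0.14 and differed by -0.05 (standard error 0.03, limma adjusted p = 0.22), though the F-test passed for *Casp9* (limma adjusted p = 0.0101). *Casp1*, the protease of the inflammasome, was at 4.87 ± 0.49 and differed by 0.21 (standard error 0.11, limma adjusted p = 0.103).

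The largest batch differences among the members, those of *Cd151* and *C1ql2*, were in genes grouped here as immune by name only. *Cd81* and *Cd24* of the same group differed by less than *Tlr12* (0.65) and *Ifi27* (-0.49). *Cd151* (ENSRNOG00000046094), a tetraspanin that binds laminin-binding integrins, ran from 7.86 to 9.61 in batch 2 (median 8.46), 6.82 to 9.87 in batch 3 (median 8.62), 5.39 to 8.64 in batch 4 (median 7.25) and 5.39 to 8.95 in batch 6 (median 7.23). In batches 4 and 6, 39 of the 42 rats lay below the median of batches 2 and 3, and 15 lay below every rat of those batches. The difference was -1.32 (standard error 0.21, limma adjusted p = 6.31e-08), larger than the SD over all rats, 1.11. *C1ql2* (ENSRNOG00000046863), a secreted synaptic protein that shares the C1q domain but is no part of complement, ran from 5.00 to 6.43 in batch 2 (median 5.57), 4.52 to 5.95 in batch 3 (median 5.39), 3.81 to 5.91 in batch 4 (median 4.86) and 3.17 to 5.55 in batch 6 (median 4.91). It was lower, with a difference of -0.68 (standard error 0.11, limma adjusted p = 2.36e-07), with 39 of the 42 rats below the median of the others. *Cd81* (ENSRNOG00000020451), a tetraspanin of nearly all cells, ran from 12.44 to 12.87 in batch 2 (median 12.63), 12.49 to 12.89 in batch 3 (median 12.67), 12.005 to 12.62 in batch 4 (median 12.40) and 12.22 to 12.59 in batch 6 (median 12.42). Its difference was small, -0.25 (standard error 0.03, limma adjusted p = 5.64e-13), but its groups were the best separated: all 42 rats lay below the median of batches 2 and 3, and 28 lay below their lowest rat. *Cd24* (ENSRNOG00000000321), a glycoprotein of young neurons and other cells, ran from 10.04 to 10.53 in batch 2 (median 10.48), 10.19 to 10.82 in batch 3 (median 10.42), 10.30 to 11.04 in batch 4 (median 10.60) and 10.25 to 10.69 in batch 6 (median 10.47), and was higher by 0.09 (standard error 0.03, limma adjusted p = 0.0263). *Cd164* (10.73 ± 0.13) and *Cd109* (4.20 ± 0.42) did not pass the test.

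Other measured markers moved with the same batches. *Dcn*, made by fibroblasts of the meninges, was higher in batches 4 and 6 by 0.26 (standard error 0.08, limma adjusted p = 0.00641) and *Vwf*, of endothelium, by 0.11 (standard error 0.05, limma adjusted p = 0.034). *Hbb* (-0.34), the macrophage gene *Lyz2* (0.03) and the astrocyte gene *Aldh1l1* (-0.08) did not pass the test. Each was the only listed marker of its cell type with a name, and its part in the members' differences was not tested.

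Males and females were compared with limma with rat batch as a factor. None of the 52 members (0) had an adjusted p under 0.05, where 0.365% of all genes did, and 0 were thus called higher in males, where 0.29% of all genes were. At an unadjusted p under 0.05 there were 10 members, where 7.82% of all genes were, and 8 of the 52 were higher in males (15.4%), where 4.41% of all genes were. Higher in males were thus 8 of these 10 members and 56.4% of all genes at that p. The lowest adjusted p of any member was that of *Il17rc*. *Il17rc* (ENSRNOG00000027376) ran from 3.32 to 5.29 in males (median 4.67) and from 2.81 to 5.04 in females (median 4.32). The sexes overlapped, with 29 of 40 males above the median female and 5 of 40 females above the median male. The difference was 0.40 (standard error 0.11, unadjusted p = 0.000281, limma adjusted p = 0.0639), and it was positive in each batch, from 0.25 in batch 2 to 0.57 in batch 3.

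*Ifit2* ran from 6.39 to 8.07 in males (median 7.04) and from 6.15 to 7.41 in females (median 6.81), a difference of 0.27 (standard error 0.08, unadjusted p = 0.00156, limma adjusted p = 0.158). *Il2ra*, a gene of few reads, ran from 1.58 to 5.13 in males (median 3.46) and from 0.00 to 5.00 in females (median 3.00), a difference of 0.60 (standard error 0.19, unadjusted p = 0.00235, limma adjusted p = 0.203). *RT1-Db1* ran from 2.58 to 5.91 in males (median 4.43) and from 2.32 to 5.43 in females (median 4.00), a difference of 0.46 (standard error 0.15, unadjusted p = 0.00381, limma adjusted p = 0.268). In these 3 genes the male median was the higher and the ranges of the sexes overlapped over most of their length. *Casp1* ran from 3.58 to 5.95 in males (median 4.95) and from 3.17 to 5.46 in females (median 4.86), with a difference of 0.28 (standard error 0.11, unadjusted p = 0.0119, limma adjusted p = 0.434). Of these 5 genes, *Casp1* alone changed direction in a batch, at -0.06 in batch 2, which held 3 females. A value of this size that misses the threshold does not show that the sexes are alike. *Dcn* also was higher in males without passing the test (difference 0.25, standard error 0.08, limma adjusted p = 0.261), and with *Dcn* as a further covariate, chosen after the results were seen, 7 members were at an unadjusted p under 0.05. The summed microglial markers were at 9.9996 ± 0.15 in males and 9.95 ± 0.13 in females. Among those markers *Olfml3* was at 0.23 (limma adjusted p = 0.131) and *P2ry12* at 0.18 (limma adjusted p = 0.297) in male minus female difference, neither past the threshold. The sex difference of no member varied between batches by limma's interaction test: 0 members and 0% of all genes had an adjusted p under 0.05, and 0 members against 2.38% of all genes an unadjusted p under 0.05.

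Whether rats fell into separate high and low groups was described by fitting 1 and then 2 normal distributions to each gene after removing sex. Separate groups were called where 2 distributions lowered the Bayesian information criterion by over 10, their means were over 4 component SDs apart and differed by 1 log2 unit or more, and no fewer than 10% of the rats fell in the smaller group. By this rule 0 members were called, where 2.46% of all genes were. The nearest was *Ifnlr1* (ENSRNOG00000033984), the specific chain of the interferon lambda receptor, with means of 3.63 and 5.90 lying 3.87 component SDs apart, a drop of the criterion of 18.5, and 18 rats in the lower and 62 in the upper group. It ran from 3.17 to 6.89 in batch 2 (median 5.90), 3.17 to 6.73 in batch 3 (median 5.78), 1.58 to 6.91 in batch 4 (median 5.70) and 3.46 to 6.44 in batch 6 (median 5.61). Each batch with more than 1 rat held both levels, with 2 of 14, 5 of 23, 7 of 26 and 4 of 16 rats in the lower group of batches 2, 3, 4 and 6. The lower group had 7 of 40 males and 11 of 40 females. Sex had been removed before the fit, and the measured means were 5.24 in males and 5.52 in females. The limit between the groups therefore lay at different measured levels in the sexes, and these counts do not compare them.

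*Ifnlr1* was just outside the rule, and it was called when the residuals were taken from sex and batch together, with 4.05 component SDs. At a limit of 3 component SDs it was the 1 member called, where 3.85% of all genes were. *Cd22* (ENSRNOG00000024000), the sialic acid-binding receptor of B cells, had the largest SD of the members, 1.43, and ran from 0.00 to 4.58 in batch 2 (median 1.79), 0.00 to 4.91 in batch 3 (median 2.58), 0.00 to 4.32 in batch 4 (median 2.32) and 1.00 to 4.58 in batch 6 (median 2.32). Low counts take few values on a log scale, and for *Cd22* the criterion did not fall. With a pseudocount of 5 the rule called it, with 25 rats in the upper group. *Ifi27* had its 2 fitted means only 2.91 component SDs apart. By the same rule *Ifit1*, which is no member, had 39 rats in the lower and 41 in the upper group.

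**Figure D4:**
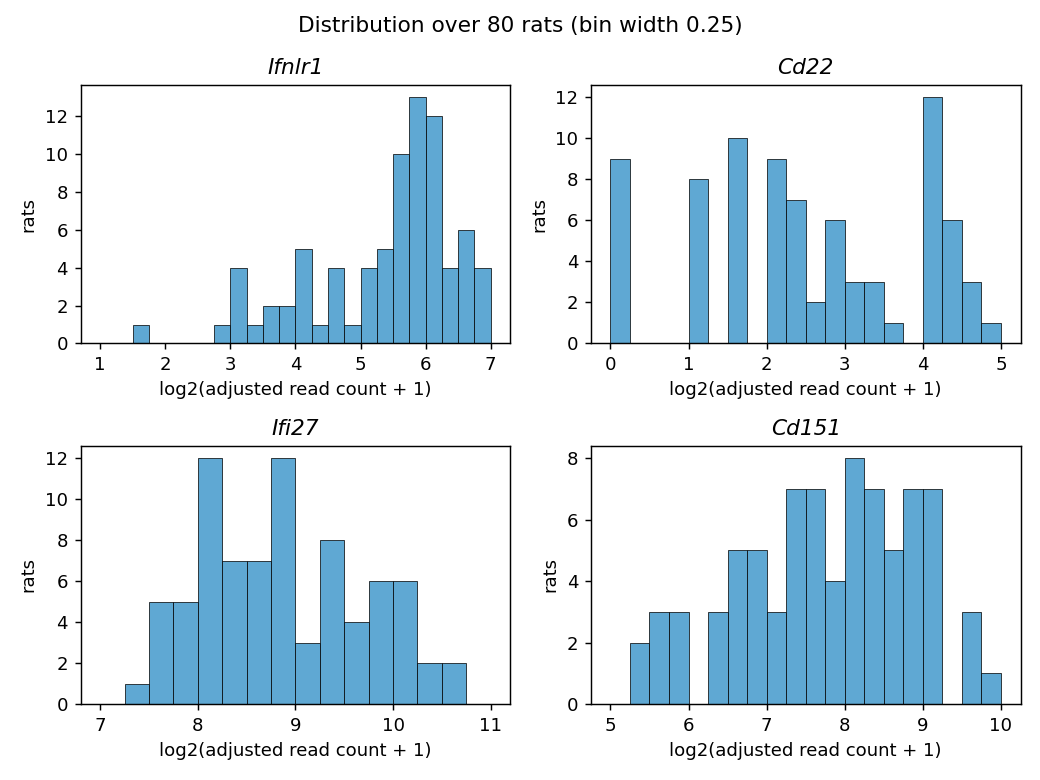
Number of rats by log2(adjusted read count + 1), in bins of 0.25, for 4 members with wide spreads. *Ifnlr1* has a long lower tail that holds 18 of 80 rats by the fit, *Cd22* has 9 rats at 0 and a cluster of rats above 4, and *Ifi27* and *Cd151* spread over 3 log2 units or more.

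Which members varied together from rat to rat was examined in 15 pairs of members of the same role or cell type. The permutation p-values are two-sided, from 100000 permutations and adjusted over the 15 pairs by Benjamini-Hochberg. By Pearson's r, 5 pairs passed, and 7 passed on residuals from sex and batch. *C1qa* and *Cd33* (r = 0.293, adjusted p = 0.0205) and *Cd53* and *Casp1* (r = 0.274, adjusted p = 0.0305) passed on residuals alone. For *C1qa* and *Cd33*, r was 0.322, 0.645, -0.00357 and -0.0412 within batches 2, 3, 4 and 6. *C1qa* and *C1qc* varied together most closely, with r = 0.84 and rho = 0.833 (adjusted p = 0.00015 and permutation p = 1e-05 for both, the lowest value possible with 100000 permutations). Without the 2 rats farthest from the *C1qa* median r was 0.815, and it was 0.83, 0.922, 0.827 and 0.763 within batches 2, 3, 4 and 6. The relation thus held within every batch with more than 1 rat.

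The other relations were weaker. For *Ifitm1* and *Ifitm3*, r was 0.349 (permutation p = 0.0017, adjusted p = 0.0101) and rho 0.354 (permutation p = 0.00142, adjusted p = 0.0106). Without the 2 rats farthest from the *Ifitm1* median r was 0.381, and within batches 2, 3, 4 and 6 it was 0.317, 0.521, 0.631 and 0.271. For *Ifit2* and *Mx1*, r was 0.342 (permutation p = 0.00203, adjusted p = 0.0101) and rho 0.299 (permutation p = 0.00699, adjusted p = 0.035). Without the 2 rats farthest from the *Ifit2* median r was 0.297, and within batches 2, 3, 4 and 6 it was 0.363, 0.411, 0.507 and -0.237. The *Ifit2* and *Mx1* relation was thus negative in batch 6, while the *Ifitm* relation was positive in all 4 batches. For *Cd53* and *Cd33*, r was 0.279 (permutation p = 0.0126, adjusted p = 0.0439) and rho 0.22 (permutation p = 0.0507, adjusted p = 0.135). Without the 2 rats farthest from the *Cd53* median r was 0.243, and within batches 2, 3, 4 and 6 it was 0.634, 0.36, -0.0171 and 0.531. For *Cd53* and *Cd86*, r was -0.272 (permutation p = 0.0146, adjusted p = 0.0439) and rho -0.232 (permutation p = 0.0384, adjusted p = 0.135). Without the 2 rats farthest from the *Cd53* median r was -0.244, and within batches 2, 3, 4 and 6 it was 0.0666, -0.416, -0.316 and -0.253. For the last pairs, both with *Cd53*, the rank correlation did not pass the threshold. *C1qa* and *Cd53* had r = 0.177 (rho = 0.203, permutation p = 0.115 and 0.0716, adjusted p = 0.215 and 0.15), and *Ifit1bl* and *Ifit2*, which belong to one gene family, r = -0.0877 (rho = 0.00421, permutation p = 0.441 and 0.97, adjusted p = 0.472 and 0.977).

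**Figure D5:**
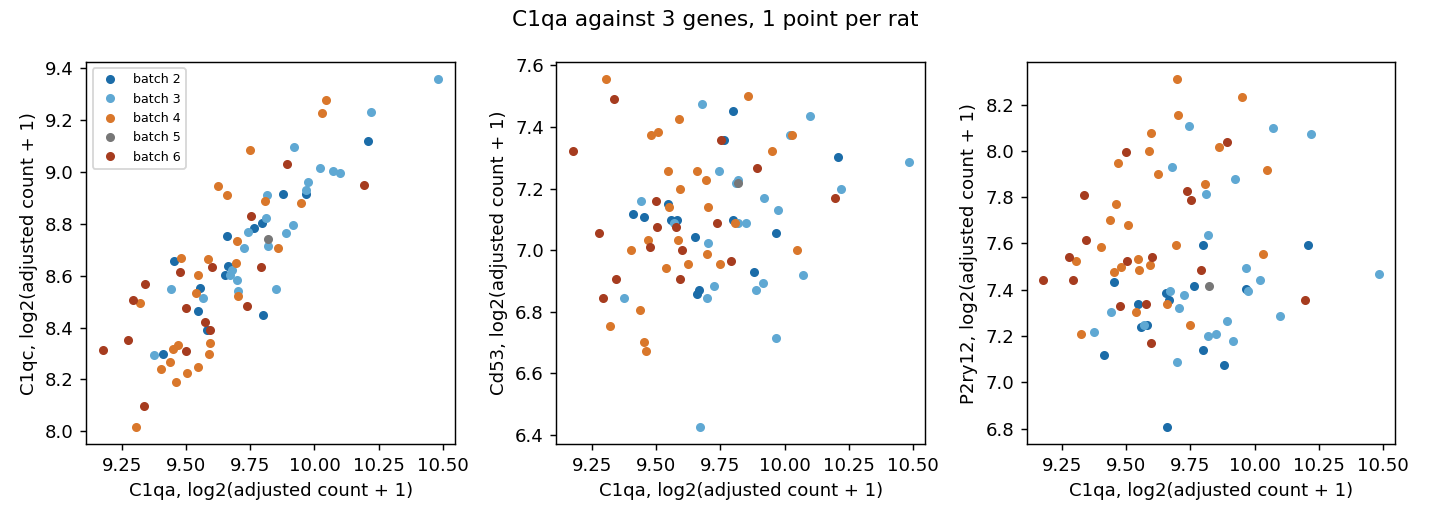
*C1qa* against *C1qc*, *Cd53* and *P2ry12* in log2(adjusted read count + 1), with 1 point per rat coloured by rat batch. The points of *C1qc* follow a line (r = 0.84), while those of *Cd53* (r = 0.177) and *P2ry12* (r = 0.125, and 0.32 on residuals from sex and batch) are more scattered.

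*C1qa* was set against the 6 microglial markers after these pairs had been seen, with p-values adjusted over the 6. *Cyba* was correlated with it, with r = 0.545 and rho = 0.565 (adjusted p = 6e-05 and permutation p = 1e-05 for both, the lowest value possible with 100000 permutations). Without the 2 rats farthest from the *C1qa* median r was 0.488, and it lay between 0.398 and 0.616 within the batches. *Sall1* had r = -0.285 (permutation p = 0.0101, adjusted p = 0.0305) and rho = -0.24 (permutation p = 0.0321, adjusted p = 0.0961), with -0.287 without the same 2 rats. Within batches its r was -0.628, -0.00686, 0.0054 and -0.26, so it did not hold in batches 3 and 4. For the other markers r lay between 0.118 for *Itgam* and 0.249 for *Olfml3*, with adjusted p of 0.0515 to 0.297. On residuals from sex and batch, r was 0.32 for *P2ry12*, 0.292 for *P2ry13*, 0.255 for *Itgam* and 0.228 for *Olfml3*, values that were not tested. Within batches 2, 3, 4 and 6, r for *P2ry12* was 0.339, 0.288, 0.4 and 0.0956. *P2ry13* and *Itgam* were likewise positive in these 4 batches, while *Olfml3* was negative in batches 2 and 6. Over the 3291 other genes with a name, the 8 whose residuals from sex and batch were most like those of *C1qa* over 80 rats included *C1qc* (r = 0.817), the lysosomal fucosidase gene *Fuca1* (0.64), *Rpl11* (0.601), *Bsg* (0.592), *LOC103690005* (0.59), *Bad* (0.581) and *Myl6* (0.578). None of the 6 microglial markers was among these 8 genes, a description with no test.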

How the data were processed

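RNA-Seq of polyA RNA from the prelimbic cortex of 80 HS rats was analysed, 1 library per rat. After adapter trimming (cutadapt), the authors aligned reads to Ensembl rat transcripts and estimated gene counts (RSEM), scaled the counts by upper quartile (DESeq2), and left out weakly expressed genes and failed samples. The values they deposited are on the log2 scale, after adding 1 to each adjusted count. The submitters' processing notes name build Rnor_6.0, and tool versions are not given in the sources used here. Such values are no raw counts, so no count test was run, and the depth behind each value is unknown here.

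Sex and rat batch came from the sample labels, and each column matched 1 sample. Genes were compared with limma 3.58.1 in R 4.3.3 (lmFit, eBayes with a variance trend) on all 17250 genes, with Benjamini-Hochberg adjustment over all of them and a threshold of 0.05. The labels give each rat as a separate animal, so p-values measure the spread between rats. Names came from the parts of the study's supplementary gene lists used here, which hold genes with an expression quantitative trait locus, and their other columns were not used.

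The members, gene lists and tests were chosen with earlier results of these data known, so a pattern among them is no independent evidence. Full values by batch are given for the called members with up to 8 largest differences in each direction and for the 5 with the largest SD, *C1qa* and *C1qc* were added for their pair, and sex values are given for the 5 members with the smallest p. Other steps used pandas 2.3.3, scipy 1.17.1 and numpy 2.4.6 in Python 3.11.15. The scripts were tested on simulated data. Alternatives to covariates, pseudocount, filter, transformation and thresholds were also computed. Genotypes were not analysed here, and a few genes, among them 1 member that stays in the counts, are not reported here.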

Additional observations from a re-analysis of the deposited data

How the results depend on the processing

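Of the 22 members called between batches in direction, each kept its direction under every alternative except *Cd33* (-0.065) and *Il6r* (0.12), which reversed in batch 4 minus batch 3 alone. In that setting *Cd93* (0.11), *Ly75* (0.22), *Tlr12* (0.17), *Tnfaip2* (-0.26, against -0.24 over the 4 batches) and *Tnfrsf21* (-0.025) were no longer past the threshold, 15 of the 22 kept direction and call, and 3 members in all were called higher in place of 7. The other alternatives (no sex in the model, a pseudocount of 5, a mean of at least 5, a rank-based inverse normal transform, libraries centred on their median, no variance trend, leaving out the rat of batch 5) each took at most 2 of the 22 out of the calls, *Cd33* among them in 3 settings. The summed microglial markers as a covariate, added after the data were seen, took out 4 (*Cd24*, *Cd33*, *Tlr12* and *Tnfaip2*). *Tlr12* was not tested with a mean of at least 5. For sex, 63 genes were called (50 higher in males), 38 without batch in the model (31 higher and 7 lower), and 26 with *Dcn* as a covariate (19 higher and 7 lower), also added afterwards. The rank transform called 1 member, higher in males, *Il17rc*, whose limma adjusted p ranged from 0.0255 to 0.35 over the alternatives. Separate groups of rats were called in 425 genes, in 664 at a limit of 3 component SDs (1 member), in 266 on residuals from sex and batch (1 member) and in 258 with a pseudocount of 5 (1 member). The causes of these changes were not tested. No paired analysis was possible because each library came from a separate rat. The 19 members with a mean log2 value under 5 rest on few reads per rat, and batch 2 holds 3 females, which limits its sex differences.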
